A study of Mus musculus with 8 samples.

Results

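The genes described here are 10 mouse genes of the Notch pathway, namely the receptors Notch1, Notch2 and Notch3, the ligands Dll1, Dll3, Dll4, Jag1 and Jag2, and the bHLH factors Hes1 and Hes6. They were taken by name, as every array probe whose RefSeq transcript belongs to one of them, which gave 13 probes of 39429 and 10 genes of the 19751 with a symbol. Total RNA of AtT20 cells, a mouse line derived from a pituitary corticotroph tumor that secretes ACTH, was measured on 8 single-color Agilent arrays. In 4 samples the cells had received the synthetic RXR agonist HX630 at 10 μM, and in the 4 control samples they had not; both groups spent 48 hr in DMEM with 1% stripped FBS. AtT20 is 1 cell line, and the labels do not say whether the samples of a group came from separate cultures, so p-values measure only the spread between these samples, which may be technical.

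Notch receptors are cleaved when a Delta or Jagged ligand on a neighboring cell binds them. The released intracellular domain enters the nucleus, joins the DNA-binding protein RBPJ and switches on target genes, among them repressors of the Hes and Hey families, which hold back proneural bHLH factors. In endocrine tissues such as the pituitary, the pathway is known for keeping progenitors undifferentiated, and Dll3 is a ligand found in many neuroendocrine tumors.

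The upstream sequences of the pair of members whose level differed most between the groups, and of a pair of other pathway genes, are shown to set the letters of the RBPJ binding core beside the values. The core searched was TGGGAA, or TTCCCA on the other strand, in the 250 bases before each annotated start in RefSeq (GRCm38.p6), where 21.6% of 32851 promoters held it. None of the 11 promoters of the 9 members with an entry held the core; Hes1 had no entry. Notch2 (chr3:98013288-98013537, plus strand) and Jag2 (chr12:112929496-112929745, minus strand) are members, Hes5 (chr4:154960673-154960922, plus strand) is a classical Notch target, and Lfng (chr5:140607091-140607340, plus strand) codes for the Lunatic fringe enzyme. Each is written 5′ to 3′ with the core in capitals.
Notch2: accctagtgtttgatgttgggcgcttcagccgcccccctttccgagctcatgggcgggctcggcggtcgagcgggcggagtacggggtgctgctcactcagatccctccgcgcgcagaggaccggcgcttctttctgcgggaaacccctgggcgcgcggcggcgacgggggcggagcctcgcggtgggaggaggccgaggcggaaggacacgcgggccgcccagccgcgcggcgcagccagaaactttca
Jag2: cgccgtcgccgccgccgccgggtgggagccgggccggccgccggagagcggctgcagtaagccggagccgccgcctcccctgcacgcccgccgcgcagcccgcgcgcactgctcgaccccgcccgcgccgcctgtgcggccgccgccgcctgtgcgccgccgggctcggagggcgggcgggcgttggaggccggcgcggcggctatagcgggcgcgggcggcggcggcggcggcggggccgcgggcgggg
Hes5: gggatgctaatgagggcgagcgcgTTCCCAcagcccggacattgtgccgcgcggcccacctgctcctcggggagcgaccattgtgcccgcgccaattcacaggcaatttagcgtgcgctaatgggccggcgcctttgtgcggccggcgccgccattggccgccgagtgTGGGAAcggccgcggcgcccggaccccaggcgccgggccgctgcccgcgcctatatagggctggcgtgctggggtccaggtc
Lfng: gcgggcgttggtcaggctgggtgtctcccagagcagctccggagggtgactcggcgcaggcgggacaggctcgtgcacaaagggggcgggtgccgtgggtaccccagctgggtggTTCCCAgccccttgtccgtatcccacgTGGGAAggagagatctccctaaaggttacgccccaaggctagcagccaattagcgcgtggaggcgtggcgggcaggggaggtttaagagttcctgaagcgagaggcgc
The Hes5 and Lfng sequences hold 2 cores each, the most among the other pathway genes read, as Hes7 held 1 and Nrarp none. Both cores of Hes5 and 1 of Lfng stand next to a further G (GTGGGAA), a longer form present in 5.42% of the promoters. A match in these letters is a description and not a binding site. The half-site of many nuclear receptors, AGGTCA or TGACCT, lay in 1 of 2 Dll1 promoters and in 1 of 2 Hes6 promoters, against 14% of all promoters.

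The values below, called signals, are log2 processed intensities of a probe with the 75th percentile on its array set to 0, and a log2 fold change is HX630 minus control. Signals are compared between groups for the same probe and never between probes. Tested were the probes that 4 or more of the 8 arrays showed well above background. The call required an adjusted p below 0.01 together with a fold of more than 1.5 (0.585 on the log2 scale). The 75th percentile lay between 1335 and 1863 intensity units in the control arrays and between 1803 and 1899 in the HX630 arrays, an array showed 69.7% to 73.5% of its probes well above background, and no spot was saturated. All 4 control arrays were on slide 1 and all 4 HX630 arrays on slide 2, so slide and treatment cannot be told apart in any value below. All 6 corticotroph markers, Pomc among them, were well above background on all arrays. By log2 fold change, Crhr1 (1.11) and Neurod1 (0.72) were called higher and Pcsk1 (-2.06) lower. Pomc (-0.45), Tbx19 (-0.37) and Pitx1 (-0.32) were lower and not called. Of 16 markers of other cell types, 7 were above background on all arrays and 6 (Prl, Tshb, S100b, Cdh5, Tek and Pdgfra) on none. Among those 7, 3 (Gh, Sox2 and Pecam1) were called lower and none higher, while 11.2% of all genes tested were called lower. The summed level of the 16 markers was 1.09 to 1.35 times the 75th percentile in control and 0.725 to 0.867 times in HX630. This sum adds different probes and is weighted to Sox2, the brightest, whose mean signal was -0.82 in control and -2.05 in HX630. Lhb (log2 fold change 0.23) and Col1a2 (0.07) did not fall. The part of these markers in the results below was not tested. A signal is an average over all cells of a sample, so fewer cells with a transcript and less of it per cell cannot be told apart.

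Of the 10 members, 8 could be tested and none was called, while 19.5% of the 15319 genes tested were called, and 0 of 10 member probes against 18.6% of all probes. The methods' t-test also called 0 members, with or without adjustment. Each gene stands here by its brightest tested probe. Notch2 was higher and Jag2 was lower with HX630 at the adjusted p alone, which makes 2 of 8 members against 51.2% of all genes (1 higher beside 24%, 1 lower beside 27.2%). These were also the only members whose groups did not overlap, whereas the groups did not overlap in 61.5% of all genes. By probe, 3 of 10 were without overlap, beside 55.7% of all probes. In limma, 3 members had an unadjusted p under 0.05 (Notch2, Jag2 and Dll1), a share to read against 68% of all genes. The 8 fold changes ran from 0.717 to 1.39, with 4 above and 4 below 1, and their median was -0.03 on the log2 scale, as was the median of all genes.

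**Figure D1:**
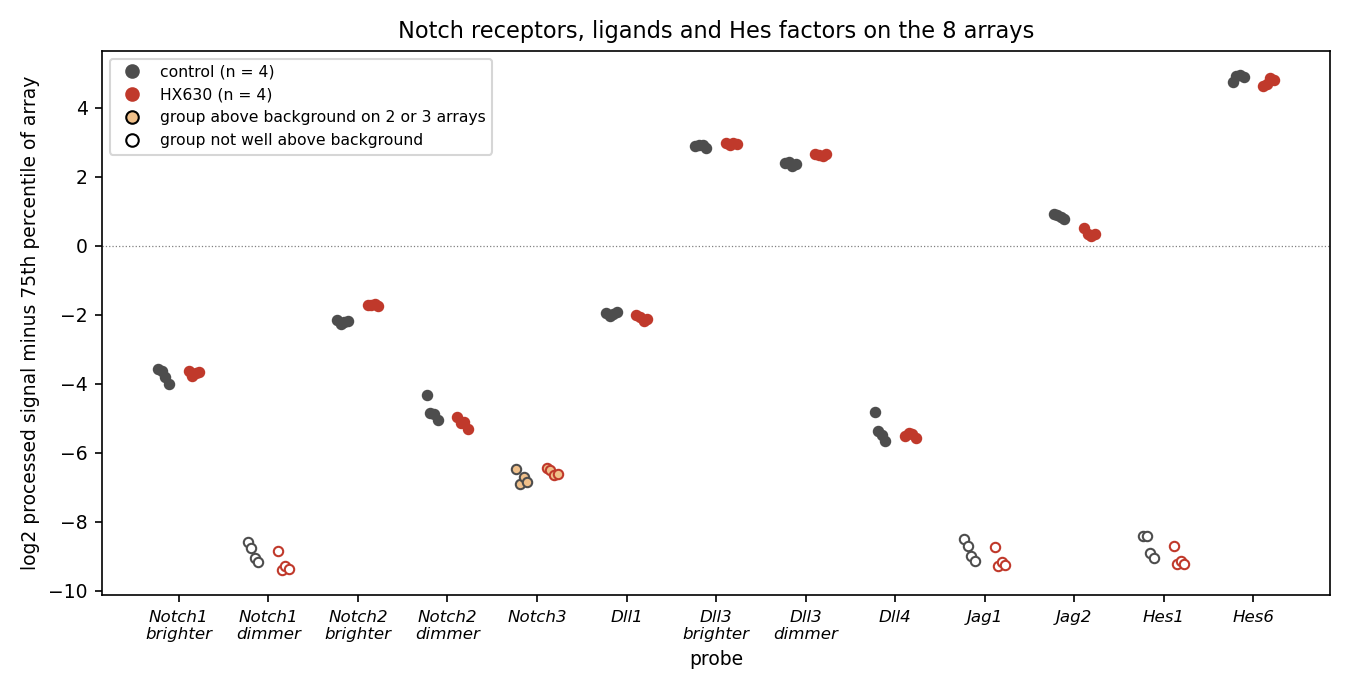
Signal of each member probe on the 8 arrays (log2 scale, 0 being the 75th percentile on that array), with 4 control arrays in grey and 4 HX630 arrays in red. Filled points belong to groups in which all 4 arrays were well above background, tinted points to groups with 2 or 3 such arrays, and open points to groups with none. The groups stand apart for the brighter Notch2 probe, the dimmer Dll3 probe and Jag2, and the probes of Jag1 and Hes1 and the dimmer Notch1 probe stay in the open points near -9.

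Among the receptors, Notch1, a broadly expressed member of the family, did not differ between the groups beyond their spread. Its tested probe read -3.58, -3.62, -3.81 and -4.01 in control and -3.64, -3.77, -3.69 and -3.66 in HX630. The HX630 values lay within the range of the control values. The log2 fold change was 0.07 ± 0.094 (SE, n = 4 per group; 95% interval -0.15 to 0.28; adjusted p = 0.581 in limma). Its other probe was not well above background on any array, so Notch1 was measured by 1 probe.

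Notch2, a receptor close to Notch1 in structure, was the member with the largest difference above 0 and the one whose probes disagreed. The brighter probe read -2.14, -2.27, -2.21 and -2.17 in control and -1.72, -1.72, -1.69 and -1.75 in HX630. All HX630 arrays lay above all control arrays. The difference was 0.47 ± 0.038 on the log2 scale (SE, n = 4 per group; limma adjusted p = 2.1e-05), which is 1.39-fold with a 95% interval of 1.31 to 1.48, below the fold threshold. Of all tested probes, 45.6% passed the same adjusted p. The dimmer Notch2 probe read -4.32, -4.85, -4.89 and -5.04 in control and -4.96, -5.14, -5.11 and -5.31 in HX630. It pointed the other way, with overlapping groups, at -0.35 ± 0.16 (SE, n = 4 per group; limma adjusted p = 0.0852). With the mean of both probes the difference was 0.06 (limma adjusted p = 0.587). Which transcripts each probe reads was not tested, and the Notch2 difference rests on 1 of 2 probes.

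Notch3 lay at the limit of detection, well above background on 2 control and 3 HX630 arrays. It read -6.46, -6.90, -6.70 and -6.84 in control and -6.44, -6.50, -6.65 and -6.63 in HX630, while the dimmest probes well above background on an array had signals between -7.56 and -6.48. The groups overlapped, with a log2 difference of 0.17 ± 0.10 (SE, n = 4 per group; limma adjusted p = 0.183). Its direction changed with normexp, which was run on median spot intensities and gave -0.27. It passed the adjusted p under quantile normalization (0.34) and spike-in scaling (0.39).

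Among the ligands, Jag2 differed most. It read 0.91, 0.88, 0.85 and 0.77 in control and 0.50, 0.35, 0.29 and 0.36 in HX630. All HX630 arrays lay below all control arrays. The difference was -0.48 ± 0.056 on the log2 scale (SE, n = 4 per group; 95% interval -0.61 to -0.35; limma adjusted p = 1.7e-04), and the exact permutation p of 0.0286 is the smallest that 4 against 4 arrays can give. HX630 samples held 71.7% of the control level, a difference under the fold threshold, so Jag2 was not called. Before scaling, its processed intensities were 2505 to 3347 in control and 2235 to 2558 in HX630, which overlap, so the size of the difference rests on the scaling between arrays. It was -0.26 with spike-in scaling and stayed below 0 and past the adjusted p in 23 of 23 alternatives.

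Jag1, the other Jagged ligand, was not well above background on any array. Its probe read -9.29 to -8.51 over the 8 arrays. No difference is given for it, and its absence from the cells is not shown.

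The Delta-like ligands Dll1 and Dll4, both of which can activate receptors on neighboring cells, were not called. Dll1 read -1.93, -2.04, -1.98 and -1.92 in control and -2.0, -2.05, -2.18 and -2.13 in HX630, with groups that overlapped. Its log2 difference was -0.12 ± 0.050 (SE, n = 4 per group; limma adjusted p = 0.0651). Dll4 read -4.82, -5.36, -5.49 and -5.67 in control and -5.52, -5.41, -5.46 and -5.56 in HX630. Its first control array stood above all others, and the log2 difference of -0.16 ± 0.17 (SE, n = 4 per group; limma adjusted p = 0.45) came to 0.01 without it.

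Dll3 differs from the other Delta-like ligands in that it does not activate receptors on neighboring cells and is held largely inside the cell. Both of its probes were bright. The brighter read 2.91, 2.92, 2.92 and 2.85 in control and 2.98, 2.92, 2.97 and 2.96 in HX630, a log2 difference of 0.06 ± 0.033 (SE, n = 4 per group; limma adjusted p = 0.16). The other read 2.41, 2.44, 2.33 and 2.36 in control and 2.66, 2.64, 2.60 and 2.67 in HX630. For this probe all HX630 arrays lay above all control arrays, at 0.26 ± 0.038 (SE, n = 4 per group; limma adjusted p = 6.4e-04). The groups of the brighter probe overlapped, so only the dimmer was higher with HX630 beyond its spread. Neither probe reached the fold threshold. The mean of both was 0.16 (limma adjusted p = 0.0037), and the brighter probe alone passed the adjusted p with spike-in scaling, at 0.28.

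The changes of receptors and of ligands were compared with each other in 9 pairs, each as the difference of 2 signals on the same array. The receptor pairs gave 0.41 for Notch2 over Notch1 and 0.30 for Notch2 over Notch3, each without overlap between the groups, and 0.11 for Notch3 over Notch1 with overlap. Among the ligands, the change of Jag2 lay below that of Dll3 by a log2 difference of 0.54 and below that of Dll1 by 0.35, and Dll3 lay above Dll1 by 0.18, all without overlap. Each of these 5 pairs without overlap had the smallest exact permutation p that 4 against 4 arrays allow, 0.0286, which becomes 0.0514 after Benjamini-Hochberg adjustment over the 9 pairs. No pair therefore passed 0.05, and the pairs that hold Notch2 or Dll3 use the brighter probe of each. The other 4 pairs overlapped, with adjusted exact p between 0.214 and 0.857.

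**Figure D2:**
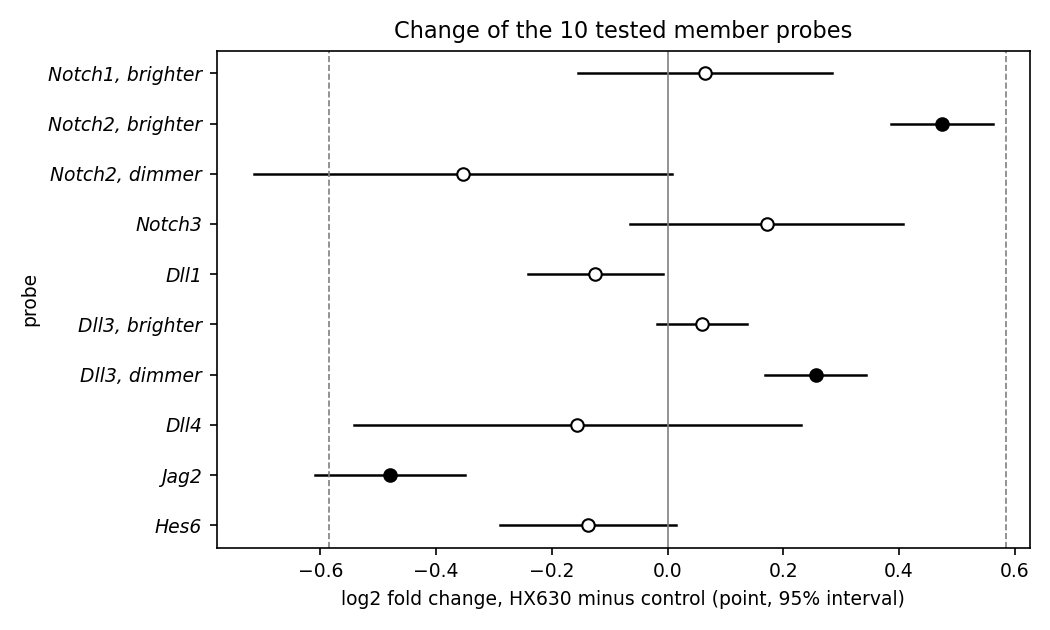
Log2 fold change of the 10 tested member probes, HX630 minus control (n = 4 arrays per group), with the 95% interval from limma. Filled points passed the adjusted p of 0.01, and the dashed lines mark the fold threshold of 1.5. The brighter Notch2 probe at 0.47, the dimmer Dll3 probe at 0.26 and Jag2 at -0.48 are filled, no point lies beyond a dashed line, and the probes of Notch2 lie on opposite sides of 0.

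Of the Hes factors, Hes6, which opposes Hes1 and favors neuronal differentiation, was measured and Hes1 was not. Hes6 read 4.76, 4.94, 4.94 and 4.89 in control and 4.62, 4.70, 4.85 and 4.81 in HX630. The groups overlapped, and the log2 difference of -0.14 ± 0.065 (SE, n = 4 per group; limma adjusted p = 0.108) had a 95% interval of -0.29 to 0.02. Its sign changed to 0.09 with spike-in scaling. The probe of Hes1, a main repressor downstream of the receptors, was not well above background on any array, at -9.24 to -8.40, so no difference is given for this target.

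Other Notch targets and relatives of Hes1 were therefore read from a list of 10 genes, of which 7 were tested. Of these 1, Heyl, fell and none rose, beside 11.2% and 8.38% of all genes. At the adjusted p alone 4 of 7 genes were lower and none higher, beside 27.2% and 24% of all genes. The median of this target list was -0.22, beside -0.03 for all genes. The glycosylation list, which holds Lfng, had 4 higher and 1 lower by the same count, and the trafficking list 6 higher and 1 lower. All 7 lists together had 22 higher and 21 lower. Heyl, a repressor of the Hey family, read -4.84, -5.23, -5.22 and -5.25 in control and -6.08, -6.02, -6.01 and -6.65 in HX630. All HX630 values lay below all control values, at -1.05 ± 0.16 (SE, n = 4 per group; limma adjusted p = 8.8e-04), which is 48.2% of control. Its HX630 signals were not far above the dimmest probes well above background on those arrays (-7.29 to -6.64). The size of the Heyl difference varied, at -0.65 with normexp and -0.83 with spike-in scaling, and it was called both times. Hey1, another Hey repressor, read -2.82, -2.78, -2.66 and -2.78 in control and -3.26, -3.31, -3.33 and -3.33 in HX630. Its groups were also apart, and its difference of -0.55 ± 0.043 (SE, n = 4 per group; limma adjusted p = 2.0e-05) stopped short of the fold threshold. Nrarp, a feedback inhibitor of Notch signaling, was lower by a log2 difference of -0.26 (limma adjusted p = 0.00499) and Hes5 by -0.22 (limma adjusted p = 0.00397). With spike-in scaling Nrarp came to -0.03 and Hes5 to 0.00092, and both lost the adjusted p with median scaling and with normexp, and without several single arrays. Hes7, known from the clock of somite formation, was at 0.01 and the receptor gene Notch4, grouped with the targets, at 0.02. Hey2, Hes3 and Helt were not tested, and Hey2 was not well above background on any array.

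**Figure D3:**
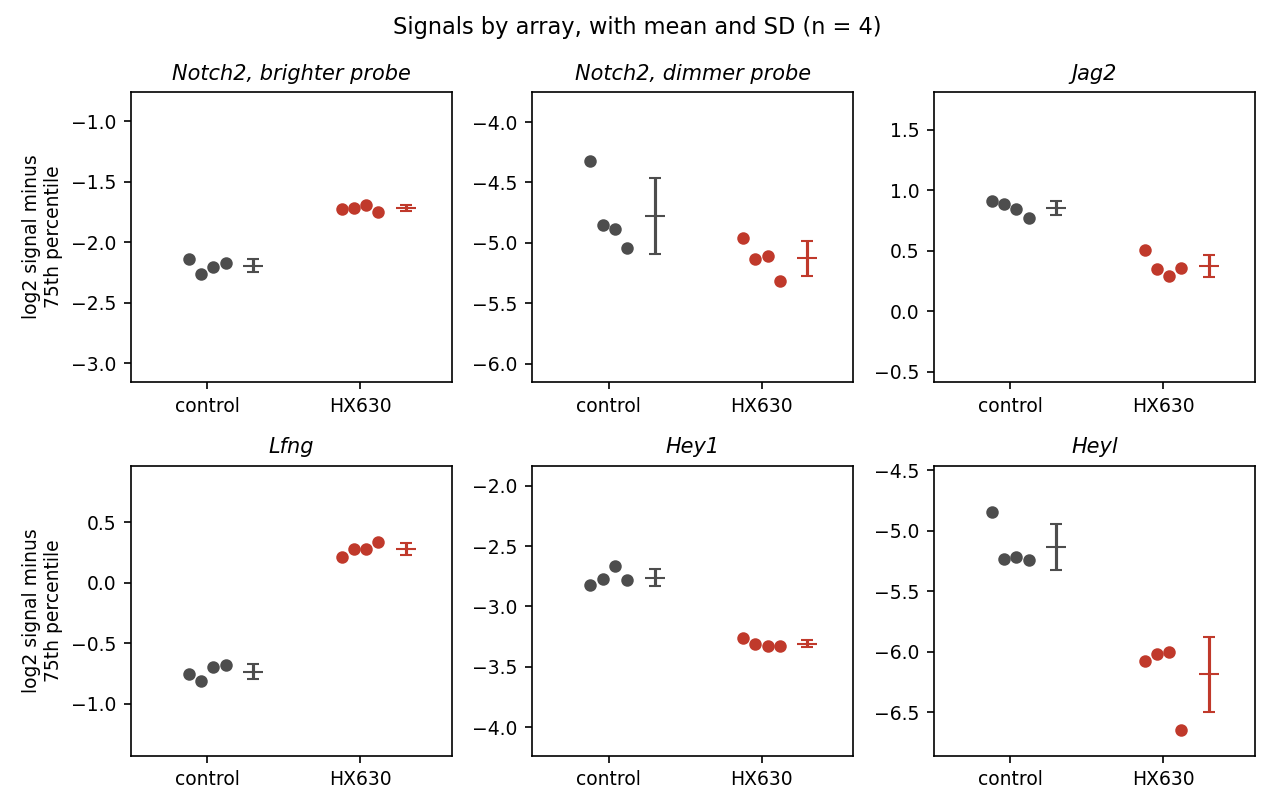
Signal on each array (points) with mean and SD (n = 4) for both Notch2 probes, Jag2, Lfng, Hey1 and Heyl, control in grey and HX630 in red, with the same log2 span in every panel. The groups are apart in every panel except that of the dimmer Notch2 probe, with HX630 above control for the brighter Notch2 probe and Lfng and below it for Jag2, Hey1 and Heyl.

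In the list for maturation and cleavage 8 of 10 genes were tested. Of these 2 fell and none rose, beside 11.2% and 8.38% of all genes. Both that fell are subunits of γ-secretase, the protease complex that releases the intracellular domain of the receptors. These were Ncstn, at -0.64 ± 0.049, and Psen2, at -0.60 ± 0.051 (log2, SE, n = 4 per group; limma adjusted p = 1.8e-05 and 2.9e-05). Psen2 was close to the threshold and lost the call without the array of HX630 replicate 4 (-0.57), of control replicate 1 (-0.58) or of control replicate 2 (-0.58). Psen2 was also not called with the 75th percentile over probes above background on all arrays (-0.58), median scaling (-0.52), normexp (-0.53) or spike-in scaling (-0.38). With quantile, median or spike-in scaling Ncstn came to -0.56, -0.55 and -0.42 and was not called. The γ-secretase subunit Psenen was at 0.02, and Furin, the protease that cleaves the receptors during maturation, at 0.20. At the adjusted p alone 3 of the 8 genes were higher and 3 lower, and the list median was 0.11.

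Of 7 tested genes for the sugars on Notch receptors, 2 rose and none fell, beside 8.38% and 11.2% of all genes. Lfng, which lengthens O-fucose on the receptors and so alters their response to Delta and Jagged ligands, read -0.76, -0.82, -0.69 and -0.68 in control and 0.21, 0.28, 0.28 and 0.34 in HX630. The groups lay far apart, at 1.01 ± 0.044 (log2, SE, n = 4 per group; limma adjusted p = 9.4e-07), or 2.02-fold. Xxylt1, which extends O-glucose with xylose, also rose, by 1.01 (limma adjusted p = 5.3e-07). Rfng, another fringe enzyme, was at -0.13, and Gxylt1 was at 0.20 for its brightest probe and at -0.074 for the mean of its probes.

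In the list for trafficking and turnover 15 genes were tested. Of these 2 rose and none fell, beside 8.38% and 11.2% of all genes. Numbl, a relative of the Notch antagonist Numb, rose by 0.86 (limma adjusted p = 5.0e-07), and Epn2, an epsin of the endocytic machinery, by 0.61 (limma adjusted p = 3.5e-06), the latter not called with normexp (0.53). Dtx3 was at -0.0045 and Epn1 at -0.02. The list median was -0.02.

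In the nuclear complex 1 of 18 tested genes rose and 1 fell, beside 8.38% and 11.2% of all genes. Tle2, a Groucho-type corepressor with which Hes proteins act, read -0.68, -0.74, -0.69 and -0.74 in control and 0.65, 0.77, 0.68 and 0.80 in HX630. It rose by 1.44 ± 0.043 (log2, SE, n = 4 per group; limma adjusted p = 2.3e-07), which is 2.70-fold. Rbpj itself was lower by a log2 difference of -0.20 (limma adjusted p = 0.00567), not called, for the brighter of 2 probes. The other probe was at -0.45, and the mean of both at -0.32 (limma adjusted p = 4.4e-04). The adjusted p of Rbpj was met in 12 of 23 alternatives, and with spike-in scaling its direction turned to 0.025. Spen and Tle3 were at -0.0042 and 0.05.

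Of the noncanonical ligands and relatives with EGF repeats, 5 were tested, 2 fell and none rose, beside 11.2% and 8.38% of all genes. Egfl7, a secreted protein reported to bind Notch receptors, fell by 0.90 (limma adjusted p = 1.7e-06), and Dner, a neuronal surface ligand, fell by 0.61 (limma adjusted p = 2.6e-05). Dner lost the call without control replicate 2 (-0.58) and under 3 of the scalings. Cntn1 was at -0.29 and Mfap5 at 0.31. The list median was -0.39.

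Among bHLH factors and their partners, on which Hes proteins act, 12 of 15 genes were tested. Of these 2 rose and 4 fell, beside 8.38% and 11.2% of all genes. The largest change was that of Id2, which binds E proteins and keeps them from DNA. It read 2.53, 2.51, 2.44 and 2.56 in control and 0.77, 0.74, 0.73 and 0.77 in HX630. The groups were far apart, and Id2 stood at 29.6% of control, a fall by 1.76 ± 0.037 (log2, SE, n = 4 per group; limma adjusted p = 7.9e-08). Its relative Id3 fell by 0.87 (limma adjusted p = 5.4e-04). Neurod1, a bHLH factor of corticotrophs that activates Pomc, rose by 0.72 and Neurod2 by 0.95 (limma adjusted p = 1.4e-04 and 1.5e-05). The E protein Tcf4 also fell, by 0.59, and is named beyond the rule because its value was seen to pass. Its call was lost without the array of control replicate 1 (-0.58) or of HX630 replicate 3 (-0.58). It was also lost with the 75th percentile over probes above background on all arrays (-0.58), with quantile and median scaling (-0.51 each), spike-in scaling (-0.37) and normexp (-0.39). The second Tcf4 probe was at -0.10, and the mean of both at -0.35 was not called. Insm1 and Tcf12, a zinc finger factor and an E protein, were at 0.27 and 0.06, and the second Tcf12 probe pointed the other way, at -0.24.

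Over all 7 lists 72 of 83 genes were tested, 7 rose and 10 fell, which are 9.72% and 13.9% beside 8.38% and 11.2% of all genes, and the median of -0.04 lay next to that of all genes. Spike-in scaling moved the median of all probes from -0.06 to 0.17 and gave 12 rises and 4 falls in the lists.

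**Figure D4:**
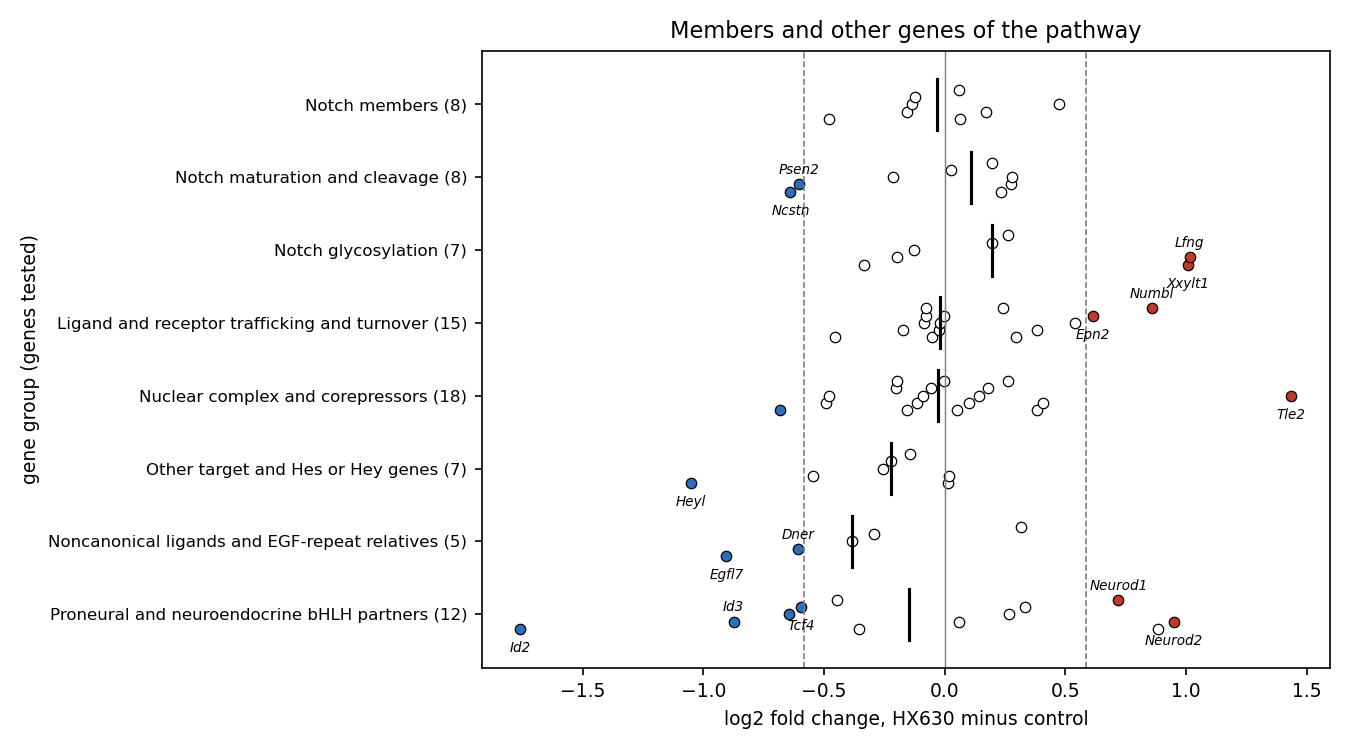
Log2 fold change (HX630 minus control, n = 4 arrays per group) of the tested members and of the tested genes of the 7 lists, 1 point per gene by its brightest tested probe. Red points rose and blue points fell (adjusted p under 0.01, fold past the dashed lines at 1.5), white points were not called, and black bars are list medians. All 8 members lie between the dashed lines, while Tle2 at 1.44, Lfng and Xxylt1 at 1.01, Heyl at -1.05 and Id2 at -1.76 lie well outside.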

How the data were processed

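Total RNA of AtT20 cells was measured on 8 Agilent mouse arrays with Cy3 only, 1 array per sample. Per the submitters' processing notes, spots were read with Agilent Feature Extraction 10.7.3.1, and the deposited files hold a processed intensity for every spot, after background subtraction and without scaling between arrays. A deposited table of log2 values, made by the authors from these arrays, served as an alternative. Neither the depth of reads nor counts apply to arrays, and 4 arrays per group limit the precision.

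In R 4.3.3, the 44397 spots of an array were used without 1377 control spots and without flagged outliers. The log2 processed intensities of repeated spots of a probe were averaged, and the 75th percentile over the probes was then subtracted within each array. Groups followed the labels. They were compared with limma 3.58.1 (lmFit and eBayes, no block), and p-values were adjusted by Benjamini-Hochberg over all 28552 probes tested. The thresholds of fold and p are those the study's methods name, with the adjustment added. Exact permutation tests were two-sided and used all 70 regroupings of the arrays. Code was first tested on simulated data with known changes.

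Probes were named through RefSeq accessions in a table on GRCm38.p6, which matched 26055 of 39429 probes (66.1%), and no gene coordinates of the probes are given because the array design uses another build. Of the 83 list genes, 79 had a matched probe. Some list genes that enter the counts are not reported here by name. A gene stands by its brightest tested probe, and other probes are named where they disagree. The members, the 7 lists and the alternatives were chosen with earlier results of these data known. Named from each list were up to 4 called genes with the largest change and 2 with the smallest, with Notch4, Rbpj, Hey1, Hey2, Heyl, Hes5 and Nrarp in any case. The rule also asked for genes most like the strongest called member, and no member was called. Alternatives were other scalings, normexp (offset 50) applied to median spot intensities, the deposited log2 values, other filters, tests and thresholds, leaving out each array, and a block for the replicate number.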

Additional observations from a re-analysis of the deposited data

Results flagged for a closer look

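In 96 groups of 4 arrays, taken over the member probes and the genes named in the report, 6 had a lowest or highest array that stood apart from the other 3, with a gap, as a share of the group's range, above Dixon's 95% critical value. Chance flags about 1 in 20 groups, which makes 4.8 here. The members gave 1 of these, in 26 groups. This was Hes1, whose first HX630 array lay above the other HX630 arrays with a gap of 0.838 of the range, at signals that were not well above background.

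Heyl, which fell, gave both of the largest gaps. Its first control array lay above the other control arrays (0.929 of the range), and its HX630 replicate 4 lay below the other HX630 arrays (0.892). Without the first it was at -0.96 and without the second at -0.90 on the log2 scale, and it was called both times. Control replicate 1 of Numbl lay below the others (0.837), HX630 replicate 4 of Dtx3 stood apart (0.832), and so did control replicate 2 of Mfap5 (0.876).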

How the results depend on the processing

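No member was called in any alternative except spike-in scaling, which called Notch2 (1 higher, at 0.70 on the log2 scale), and an adjusted p below 0.05 without a fold threshold, which gave 1 higher (Notch2) and 1 lower (Jag2). Jag2 was below 0 in every alternative run, and its values without single arrays were -0.52 to -0.45. The brighter Notch2 probe was at 0.45 to 0.49 without single arrays and lost the adjusted p only with the mean of its probes. Differences of members that were not called changed sign for Hes6 (0.0081 with quantile normalization, 0.09 with spike-in scaling), Dll1 (0.10) and Dll4 (0.07) with spike-in scaling, for Notch1 (-0.08) and Notch3 (-0.27) with normexp, and without a control array for Notch1 (-0.02 without replicate 4) and Dll4 (0.01 without replicate 1).

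In the lists, spike-in scaling gave 12 higher and 4 lower calls, quantile normalization 9 higher and 6 lower, median scaling 9 higher and 5 lower, and the adjusted p below 0.05 without a fold threshold 25 higher and 23 lower. Rbpj came to 0.025 and Hes5 to 0.00092 with spike-in scaling, and Gxylt1 to -0.074 with the mean of its probes. Over all probes, 2131 were called higher and 3184 lower (40.1% higher). Spike-in scaling gave 4189 and 1889 (68.9% higher), median scaling 51.6% higher, normexp 1240 higher, and the wider threshold 7312 and 9408. Without single arrays the calls over all probes were 1944 to 2568 higher and 2879 to 3369 lower, those in the lists 7 to 8 higher and 7 to 10 lower, and those of members 0. The cause of these changes was not tested.

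The replicate numbers of the labels were tried as a block. Samples with the same number had correlations of 0.523, -0.00926, 0.243 and 0.381, and 2 of 4 numbers correlated best within themselves. Since 1 pair was not above 0.1 and the labels give no shared origin, the numbers were not taken to pair the samples. With the replicate block 0 members, 8 higher and 9 lower list genes, and 2210 higher and 3345 lower probes were called. Neurog2 gained a call. Signal over background limits Notch3, Jag1, Hes1 and 1 Notch1 probe.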
